A study of Mus musculus with 18 samples.

Results

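The genes described here are 10 genes for matrix proteins of fibroblasts that are not collagens, namely Fn1, Sparc, Postn, Tnc, Thbs1, Thbs2, Lox, Fbn1, Bgn and Dcn. They were taken by symbol from the 23420 rows of the deposited table of raw counts, and all 10 were among the 11762 genes that passed the expression filter. Their counts were followed in NIH-3T3 cells, an established line of mouse embryonic fibroblasts described in the labels as immortalized, grown in DMEM medium with 10% FBS. RNA from 18 libraries was sequenced, 3 in each of 6 groups. Wild-type (WT) cells and Nrf1-KO cells, in which the gene for the transcription factor Nrf1 had been disrupted with CRISPR/Cas9, each received DMSO, the vehicle, or 200 nM carfilzomib (CFZ), an irreversible inhibitor of the proteasome, for 6 h or 24 h. The sources used here do not give the time in DMSO, nor whether the Nrf1-KO line is 1 clone, so an effect of the knockout and any other difference between these 2 lines cannot be told apart. Each line has 1 DMSO group, set against both times of CFZ, so an effect of CFZ and one of time in culture cannot be told apart either. The question the design poses for these genes is how proteasome inhibition changes them and whether that response depends on Nrf1.

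The extracellular matrix is the meshwork of secreted proteins on which fibroblasts sit and which they make themselves. Glycoproteins such as fibronectin carry cell-binding sites, matricellular proteins such as the thrombospondins, tenascin C, periostin and SPARC tune how cells attach to that meshwork, fibrillin builds microfibrils, lysyl oxidase cross-links collagen and elastin, and small proteoglycans such as decorin and biglycan bind collagen fibrils and growth factors. All of them are made in the endoplasmic reticulum and secreted, and NIH-3T3 fibroblasts are known to make an abundant matrix.

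Levels are given as CPM, the counts on a gene in every 1000000 of its library after TMM scaling, a correction for differences in RNA composition. Changes were tested on the counts with the edgeR quasi-likelihood test in 1 model of the 6 groups, and a gene is called higher or lower where the Benjamini-Hochberg adjusted p-value over all 11762 genes was under 0.05, with no minimum fold. An interaction is the log2 fold change of CFZ against DMSO in Nrf1-KO cells minus that in WT cells. Each library held between 8333148 and 23917081 counts (median 14419832), each of the 18 correlated best with another library of its own group, and the biological coefficient of variation over all genes was 3.13%, so small differences pass the test. Nfe2l1, the row of the gene for Nrf1, was at 437 to 457 CPM in WT DMSO and at 174 to 185 CPM in Nrf1-KO DMSO. It was lower in Nrf1-KO cells in DMSO (log2 fold change −1.31), at 6 h (−0.62) and at 24 h (−1.47). Against DMSO, Nfe2l1 rose at 6 h of CFZ 1.43-fold in WT and 2.32-fold in Nrf1-KO cells, an interaction of 0.70. The Nrf1-KO libraries at 6 h held 413.5 to 427 CPM. At 24 h the rises were 1.26-fold and 1.13-fold. Of 9 fibroblast marker genes 8 were tested, with summed levels of 26710 to 28290 CPM in WT DMSO and 21270 to 25380 CPM in Nrf1-KO DMSO, while Fap was at 0 in all 3 WT DMSO libraries. The epithelial, endothelial, blood cell and adipocyte markers summed to at most 13.03, 4.33, 5.96 and 0.825 CPM in any library.

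Promoter sequence from RefSeq was at hand for 6 of the 10 genes (Sparc, Postn, Tnc, Thbs2, Fbn1 and Bgn). The windows of Postn, Tnc and Thbs2 are shown because these 3 genes differed between the lines in DMSO, and because they are the ones that held a searched motif. Each is the 250 bases before an annotated start, 5′ to 3′ on the strand of the gene, in GRCm38.p6. Capitals mark TGACNNNGC, the core of the antioxidant response element that Nrf1 and related factors are known to bind, CCAAT, and TATAAA, the letters of the TATA box, on either strand.
Postn, upstream start, chr3:54359017-54359266, plus strand: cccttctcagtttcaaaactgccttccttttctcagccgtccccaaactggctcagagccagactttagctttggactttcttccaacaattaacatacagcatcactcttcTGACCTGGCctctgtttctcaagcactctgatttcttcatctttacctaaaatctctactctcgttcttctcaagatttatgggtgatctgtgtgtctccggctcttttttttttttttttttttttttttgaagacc
Postn, downstream start, chr3:54360857-54361106, plus strand: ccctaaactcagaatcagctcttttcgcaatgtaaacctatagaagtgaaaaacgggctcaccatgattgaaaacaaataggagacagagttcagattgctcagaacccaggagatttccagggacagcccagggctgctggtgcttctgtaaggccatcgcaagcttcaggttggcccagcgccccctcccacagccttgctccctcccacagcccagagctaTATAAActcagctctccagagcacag
Tnc, chr4:64047016-64047265, minus strand: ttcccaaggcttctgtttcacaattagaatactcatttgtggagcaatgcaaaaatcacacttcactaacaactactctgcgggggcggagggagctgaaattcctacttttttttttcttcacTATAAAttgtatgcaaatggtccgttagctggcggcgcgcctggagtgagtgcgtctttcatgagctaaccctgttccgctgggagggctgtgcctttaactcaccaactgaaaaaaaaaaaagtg
Thbs2, chr17:14694263-14694512, minus strand: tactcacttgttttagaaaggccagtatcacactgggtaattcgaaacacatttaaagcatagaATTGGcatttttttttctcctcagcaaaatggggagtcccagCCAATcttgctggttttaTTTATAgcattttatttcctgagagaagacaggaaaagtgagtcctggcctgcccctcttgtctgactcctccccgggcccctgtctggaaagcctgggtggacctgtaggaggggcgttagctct
The upstream window of Postn held the antioxidant response element core 138 bases before the start, and its downstream window held a TATA box 26 bases before the start. The upstream window of Postn also held CCAAT on the opposite strand 24 bases after the start, outside the bases shown. Tnc held the letters TATAAA 126 bases before the start shown, a match that also lies in the window of its other annotated start, 205 bases before it. Thbs2 held CCAAT on each strand and TATAAA on the opposite strand. Over 32851 promoter windows of 300 bases, which run from 250 bases before to 50 bases after a start, the antioxidant response element core was found in 12.4%, TATAAA in 13.6%, CCAAT in 37.4% and the AP-1 motif TGANTCA in 7.81%. The AP-1 motif was in none of the windows of the 6 genes, and the windows of Sparc, Fbn1 and Bgn held none of the 4 motifs. A match of letters is a description of the window and shows no binding.

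After 24 h of CFZ, 9 of the 10 genes were lower than in DMSO in WT cells and 9 of the 10 in Nrf1-KO cells. The tenth gene in both lines was Tnc, which did not pass the test in WT cells and rose 2.43-fold in Nrf1-KO cells. In WT cells the falls ran from 1.83-fold for Fn1 to 6.23-fold for Postn, and 8 of the 10 genes fell at least 2-fold. Among all genes tested 40.5% were lower and 43.2% higher in that comparison, and 14.5% were lower by at least 2-fold. The median log2 fold change was −1.58 over the 10 genes and 0.02 over all genes tested. In Nrf1-KO cells 6 of the 10 fell at least 2-fold and Tnc was 1 gene higher at least 2-fold, beside 41.1% of all genes lower, 44.4% higher, 15.2% lower at least 2-fold and 11.5% higher at least 2-fold. The median there was −1.20 over the 10 genes and 0.03 over all genes. As this is bulk RNA, fewer cells that make a transcript and less of that transcript per cell cannot be told apart.

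Read together, the 10 genes took up 1.51% to 1.67% of the counts in WT DMSO libraries and 0.554% to 0.591% after 24 h of CFZ. Their summed level was 15070 ± 853 CPM in WT DMSO (mean ± SD, n = 3), 15090 ± 804 CPM at 6 h and 5853 ± 175 CPM at 24 h. In Nrf1-KO cells the sum was 13790 ± 1410 CPM in DMSO, 16200 ± 1030 CPM at 6 h and 6798 ± 758 CPM at 24 h. The groups at 24 h thus lay below DMSO and 6 h in both lines. The sum mostly follows the abundant genes, with means of 6875 CPM for Fn1, 3167 for Lox, 2627 for Sparc and 1319 for Bgn in WT DMSO. At 6 h Fn1 went to 8031 CPM in WT cells while Lox went to 2370. In Nrf1-KO cells Fn1 went from 6963 to 10270 CPM and Lox from 1757 to 1269. The sums at 6 h therefore do not describe the 10 genes one by one.

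**Figure D1:**
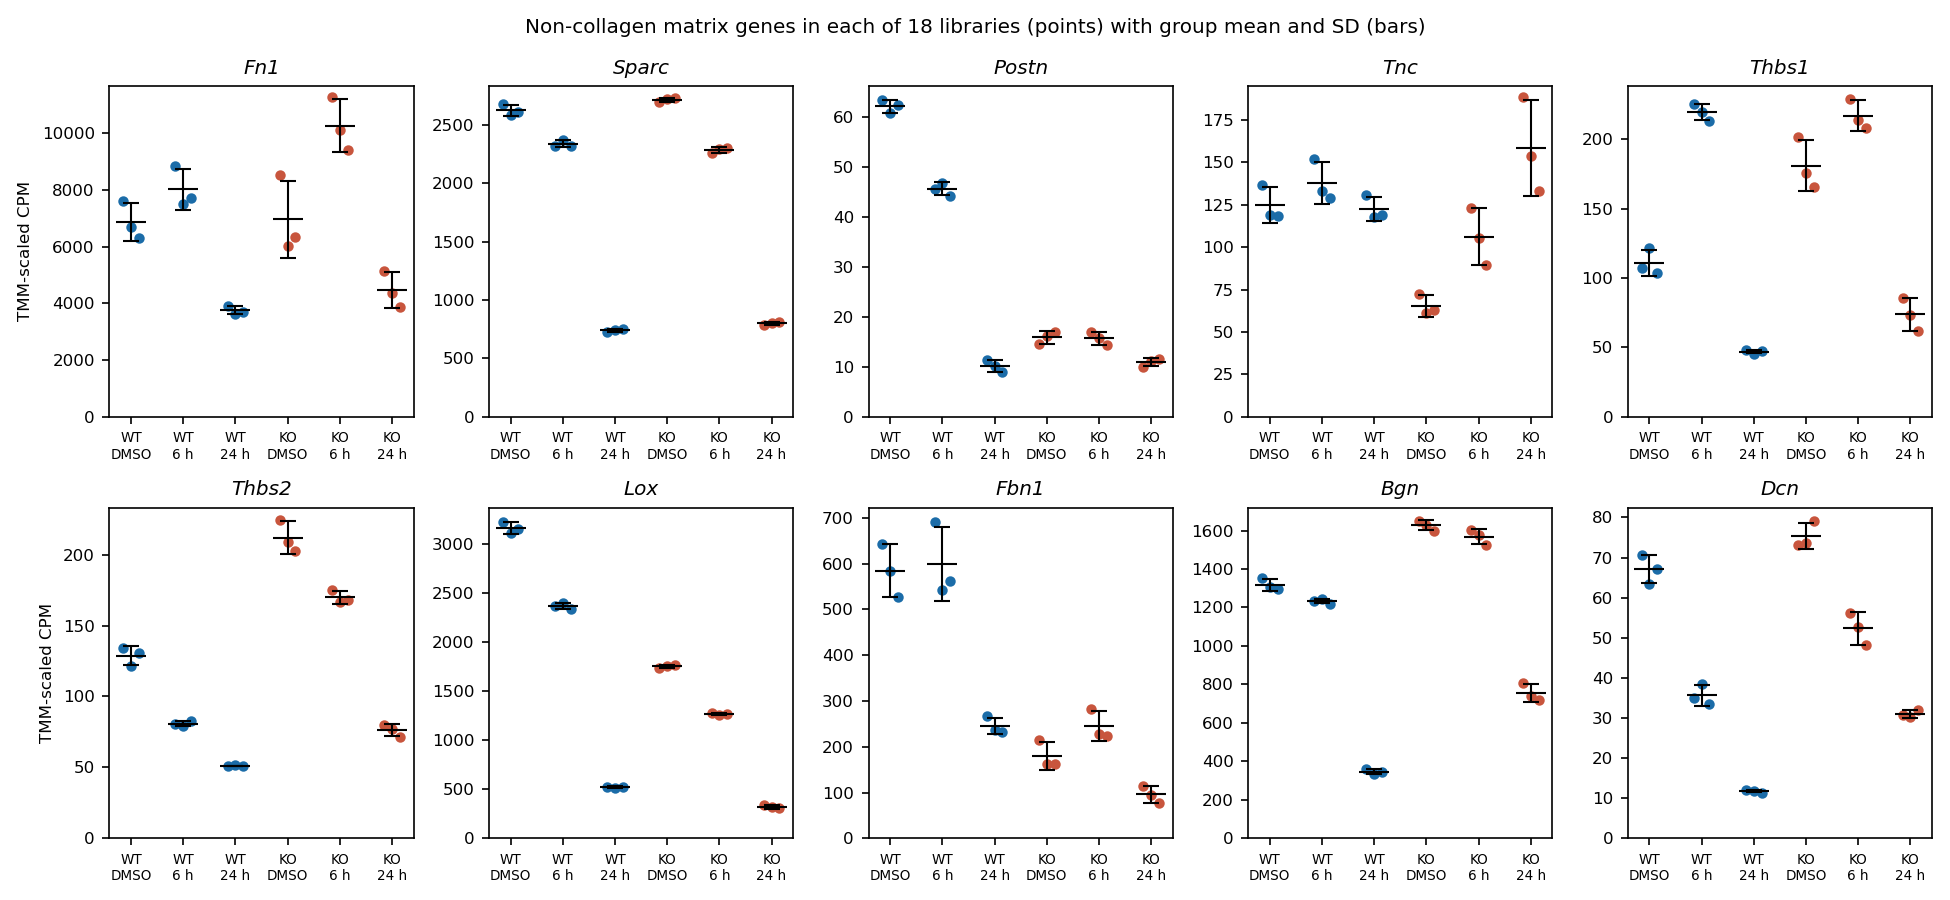
Each panel plots the TMM-scaled CPM of 1 gene (vertical axis, starting at 0) in the 18 libraries as points, by line and treatment, with the mean and SD of 3 libraries as bars. Every gene but Tnc is lowest at 24 h of CFZ within its line, whereas Tnc stays between 118 and 152 CPM in WT cells and climbs from at most 72.6 CPM in Nrf1-KO DMSO to at least 133 CPM at 24 h.

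At 6 h the 10 genes did not move one way. In WT cells 2 were higher (Fn1 and Thbs1), 6 lower (Sparc, Postn, Thbs2, Lox, Bgn and Dcn) and 2 did not pass the test (Tnc and Fbn1), against 35.6% of all genes higher and 36.2% lower. In Nrf1-KO cells 4 were higher (Fn1, Tnc, Thbs1 and Fbn1) and 4 lower (Sparc, Thbs2, Lox and Dcn), against 34.5% and 35% of all genes. None of the 10 changed at least 2-fold at 6 h in either line, where 3.98% of all genes were higher and 5.65% lower at least 2-fold in WT cells, and 3.3% and 4.26% in Nrf1-KO cells. The medians were −0.13 in WT and −0.03 in Nrf1-KO cells, beside −0.02 and −0.01 over all genes. Scaling by library size alone lowers the median of all genes at 6 h to −0.15 in WT cells and −0.12 in Nrf1-KO cells (−0.02 and −0.01 with TMM), and the share of higher genes among those called in WT cells is then 35.4% rather than 49.6%.

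From 6 h to 24 h in WT cells 9 of the 10 genes fell and none rose, 8 of them at least 2-fold. Tnc was again the gene that did not pass the test, although 7 of 14 alternative fits called it lower, and at an unadjusted p under 0.05 edgeR, like DESeq2 after adjustment, gave 0 higher genes here and in the comparison of 24 h with DMSO. Of all genes 35.4% were lower, 36.9% higher and 6.92% lower by at least 2-fold in that comparison. In Nrf1-KO cells 9 fell between 6 h and 24 h, 7 of them at least 2-fold, and Tnc rose 1.47-fold, beside 38.3% of all genes lower, 38.7% higher, 9.22% lower at least 2-fold and 6.56% higher at least 2-fold. The 2 comparisons with the 24 h libraries share those libraries, so they are not independent of each other.

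Fn1 encodes fibronectin, the adhesive glycoprotein that fibroblasts assemble into fibrils, and lies at chr1:71585520-71653200 on the minus strand (GRCm38). Its 3 WT libraries gave 7605, 6706 and 6315 CPM in DMSO, 8861, 7509 and 7722 at 6 h, and 3912, 3643 and 3716 at 24 h. Nrf1-KO cells gave 8526, 6024 and 6340 CPM in DMSO, 11290, 10110 and 9421 at 6 h, and 5157, 4380 and 3874 at 24 h. Fn1 was thus raised and then lowered, with all 3 Nrf1-KO libraries at 6 h above every other library of the series. The rise was 1.48-fold in Nrf1-KO cells at 6 h (log2 fold change 0.56 ± 0.09 SE, adjusted p = 2.68e-06). The WT rise of 1.17-fold, with DMSO and 6 h libraries that overlapped, had an adjusted p of 0.0292 with edgeR and of 0.2 with DESeq2, and it was not called without WT DMSO library 2 or 3 or WT 6 h library 1 (log2 fold changes 0.21, 0.16 and 0.16). The fall at 24 h was 1.83-fold in WT and 1.56-fold in Nrf1-KO cells, and the lines did not differ by the test in DMSO (log2 fold change 0.02 ± 0.09 SE). At 24 h Fn1 was 1.19-fold higher in Nrf1-KO cells (adjusted p = 0.0155), with libraries that overlapped, and it was not called with DESeq2 (adjusted p = 0.0863) or without WT 24 h library 2 (log2 fold change 0.23) or Nrf1-KO 24 h library 1 (0.15). The greater rise in Nrf1-KO cells at 6 h, an interaction of 0.34 with an adjusted p of 0.0381, was not called with DESeq2 (adjusted p = 0.184) and was lost in 7 of the 12 fits that leave out 1 library, at 0.23 to 0.35.

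Sparc encodes a secreted calcium-binding glycoprotein that binds collagen, at chr11:55394500-55423183 on the minus strand. The WT libraries were at 2679, 2587 and 2614 CPM in DMSO, 2323, 2373 and 2316 at 6 h, and 729, 743 and 750.3 at 24 h. Those of the Nrf1-KO line were at 2695, 2724 and 2726 CPM in DMSO, 2258, 2292 and 2302 at 6 h, and 788, 807 and 813 at 24 h. Within each line the 3 treatments did not overlap, and the lines lay close to each other throughout. The fall at 24 h was 3.55-fold in WT cells (log2 fold change −1.83 ± 0.03 SE, adjusted p = 1.01e-30) and 3.38-fold in Nrf1-KO cells. Neither interaction passed the test, with −0.08 ± 0.04 at 6 h and 0.07 ± 0.04 for the later time. Sparc was 1.08-fold higher in Nrf1-KO cells at 24 h (adjusted p = 9.85e-04), which is a small difference between libraries that did not overlap.

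Postn encodes periostin, a matricellular protein that binds fibronectin, tenascin C and collagen, at chr3:54361109-54391037 on the plus strand. WT cells held 63.4, 60.8 and 62.4 CPM in DMSO, 45.6, 46.9 and 44.3 at 6 h, and 11.3, 10.1 and 8.99 at 24 h. Nrf1-KO cells held 14.5, 16.2 and 16.9 CPM in DMSO, 16.9, 15.8 and 14.4 at 6 h, and 10.0, 11.2 and 11.6 at 24 h. Postn was therefore already low in untreated Nrf1-KO cells, and the lines met at 24 h, where their libraries overlapped. In DMSO it was 3.88-fold lower in Nrf1-KO than in WT cells (adjusted p = 4.93e-23). In WT cells it fell 6.23-fold at 24 h of CFZ, and in Nrf1-KO cells 1.46-fold, a difference of responses of 2.09 ± 0.11 (interaction, adjusted p = 1.7e-16). At 24 h the lines differed by 0.14 ± 0.09 on the log2 scale, which did not pass the test. The upstream window of Postn printed above is the one of the windows shown that holds the antioxidant response element core. The downstream window of Postn, which ends at 54361106 beside the gene start at 54361109, does not hold it. Whether that element bears on the level of Postn was not tested.

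Tnc encodes tenascin C, a large glycoprotein of wounds and remodelling tissue that interferes with adhesion to fibronectin, at chr4:63959785-64047015 on the minus strand. In WT cells it stood at 137, 119 and 118 CPM in DMSO, 152, 133 and 129 at 6 h, and 131, 118 and 119 at 24 h. In Nrf1-KO cells it stood at 72.6, 60.9 and 62.7 CPM in DMSO, 123, 106 and 89.6 at 6 h, and 188, 154 and 133 at 24 h. The WT treatments overlapped one another, whereas the 3 Nrf1-KO treatments were separate and lay in the order of time. Against DMSO, Tnc rose in Nrf1-KO cells 1.65-fold at 6 h of CFZ (adjusted p = 1.31e-07) and 2.43-fold at 24 h (log2 fold change 1.28 ± 0.09 SE, adjusted p = 3.47e-14). From a level 1.92-fold below WT in DMSO, Tnc came to lie 1.30-fold above WT at 24 h (adjusted p = 3.67e-04), and the lines did not overlap under any treatment. The interaction had a value of 0.58 ± 0.13 at 6 h and, for 24 h, of 1.32 ± 0.13, and the latter ranged from 1.18 to 1.43 over its 20 alternative fits. The library numbered 1 was the highest of 3 in all 6 groups for Tnc, Fn1 and Fbn1, and with the libraries numbered 2 and 3 alone the interaction of Tnc at 24 h was 1.22. In WT cells the log2 fold change at 24 h was −0.04 ± 0.09 (adjusted p = 0.7). There Tnc was called higher at 6 h in 5 of 14 alternative fits and lower from 6 h to 24 h in 7 of 14, the replicate block among them (0.14 and −0.17), though in neither comparison as reported (adjusted p = 0.157 and 0.0789).

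Thbs1 encodes thrombospondin 1, a matricellular protein known to activate latent TGF-beta, at chr2:118111876-118127133 on the plus strand. WT libraries had 107, 122 and 104 CPM in DMSO, 225, 219.8 and 213 at 6 h, and 47.9, 45.6 and 47.5 at 24 h. Nrf1-KO libraries had 201, 176 and 166 CPM in DMSO, 229, 214 and 208 at 6 h, and 85.7, 73.4 and 62.2 at 24 h. It rose and then fell below its DMSO level in both lines, and the lines overlapped at 6 h. The rise at 6 h was 1.98-fold in WT cells (log2 fold change 0.99 ± 0.07 SE, adjusted p = 2.87e-14) and 1.21-fold in Nrf1-KO cells, which started 1.63-fold higher in DMSO. The interaction at 6 h was −0.72 ± 0.09 (adjusted p = 2.7e-07), the one interaction among the 10 genes that was called lower. From 6 h to 24 h Thbs1 fell 4.68-fold in WT and 2.96-fold in Nrf1-KO cells. Against DMSO the fall at 24 h was 2.36-fold and 2.45-fold, and the interaction at 24 h was −0.05 ± 0.11.

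Thbs2 encodes thrombospondin 2, a relative of Thbs1 known for its part in collagen fibril assembly, at chr17:14665500-14694235 on the minus strand. Its WT values were 134, 121 and 130.5 CPM in DMSO, 80.6, 79.4 and 82.6 at 6 h, and 51.0, 51.3 and 50.8 at 24 h. Its Nrf1-KO values were 224, 209 and 202 CPM in DMSO, 175, 166 and 168 at 6 h, and 79.9, 77.2 and 71.4 at 24 h. Unlike Thbs1 it fell at both times, and every Nrf1-KO library lay above every WT library of the same treatment. The fall was 1.59-fold at 6 h and 2.52-fold at 24 h in WT cells, and 1.25-fold and 2.78-fold in Nrf1-KO cells. Thbs2 was 1.64-fold higher in Nrf1-KO cells in DMSO, 2.10-fold at 6 h and 1.49-fold at 24 h. Its lesser fall in Nrf1-KO cells at 6 h was an interaction of 0.36 ± 0.06 (adjusted p = 2.15e-05), whereas the later value of −0.14 ± 0.07 had an adjusted p of 0.0646.

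Fbn1 encodes fibrillin 1, the main protein of microfibrils, at chr2:125300594-125507993 on the minus strand. WT libraries gave 643, 585 and 527 CPM in DMSO, 692, 542 and 563 at 6 h, and 266, 238 and 233 at 24 h. In the Nrf1-KO line the libraries gave 215, 162 and 162 CPM in DMSO, 282, 228 and 224 at 6 h, and 115, 95.0 and 77.7 at 24 h. DMSO and 6 h overlapped in WT cells and were separate in Nrf1-KO cells, and the lines were separate under each treatment. Fbn1 was 3.27-fold lower in Nrf1-KO cells in DMSO (log2 fold change −1.71 ± 0.10 SE, adjusted p = 3.83e-15), 2.44-fold at 6 h and 2.56-fold at 24 h. CFZ lowered it 2.39-fold in WT and 1.88-fold in Nrf1-KO cells at 24 h, after 6 h had raised it 1.37-fold in the Nrf1-KO line, with an adjusted p of 3.45e-04. The interactions of 0.42 ± 0.14 at 6 h and 0.35 ± 0.15 at 24 h had adjusted p-values of 0.0195 and 0.0436, and with DESeq2 of 0.162 and 0.201, and leaving out 1 library took away the call in 6 of 12 fits at 6 h (0.30 to 0.36) and in 8 of 12 at 24 h (0.21 to 0.35). An annotated gene on the other strand, Gm9913, covers 20.1% of the Fbn1 exon bases, and the sources used here do not say whether reads were counted by strand.

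Lox encodes lysyl oxidase, the enzyme that starts the cross-linking of collagen and elastin, at chr18:52516067-52529867 on the minus strand. WT levels were 3230, 3118 and 3153 CPM in DMSO, 2367, 2400 and 2343 at 6 h, and 528, 511 and 523 at 24 h. Nrf1-KO levels were 1740, 1763 and 1768 CPM in DMSO, 1278, 1258 and 1271 at 6 h, and 344, 319 and 305 at 24 h. All 6 groups were separate from one another, with Nrf1-KO below WT under each treatment. Lox fell 6.08-fold in WT cells at 24 h (log2 fold change −2.61 ± 0.04 SE, adjusted p = 7.82e-33) and 5.45-fold in Nrf1-KO cells, after falls of 1.34-fold and 1.38-fold at 6 h. It was 1.80-fold lower in Nrf1-KO cells in DMSO, 1.87-fold at 6 h and 1.61-fold at 24 h. The interaction at 24 h was 0.16 ± 0.05 (adjusted p = 0.00591). It did not pass the test with library size alone, at 0.08, or with the replicates numbered 2 and 3 alone, at 0.1.

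Bgn encodes biglycan, a small leucine-rich proteoglycan, at chrX:73483602-73495933 on the plus strand. WT cells had 1354, 1306 and 1296 CPM in DMSO, 1235, 1243 and 1220 at 6 h, and 359, 336 and 347 at 24 h. Nrf1-KO cells had 1652, 1631 and 1600 CPM in DMSO, 1602, 1577 and 1526 at 6 h, and 805, 742 and 719.5 at 24 h. The Nrf1-KO libraries were above the WT libraries under every treatment, with the widest gap at 24 h. Bgn fell 3.80-fold in WT cells at 24 h and 2.15-fold in Nrf1-KO cells, an interaction of 0.82 ± 0.05 (adjusted p = 1.17e-14). It was 1.23-fold higher in Nrf1-KO cells in DMSO and 2.18-fold higher at 24 h. At 6 h the changes were small, 1.07-fold lower in WT cells (adjusted p = 0.017, not called without WT DMSO library 1 or WT 6 h library 1 or 3, at −0.07, −0.09 and −0.08), and 1.04-fold lower in Nrf1-KO cells without passing the test.

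Dcn encodes decorin, the relative of biglycan that coats collagen fibrils and binds TGF-beta, at chr10:97479609-97518143 on the plus strand. Its levels in WT cells were 70.6, 63.5 and 67.2 CPM in DMSO, 35.0, 38.5 and 33.4 at 6 h, and 12, 11.8 and 11.4 at 24 h. Its levels in Nrf1-KO cells were 73.2, 73.7 and 79.1 CPM in DMSO, 56.2, 52.7 and 48.1 at 6 h, and 30.7, 30.2 and 32.0 at 24 h. The lines were near each other in DMSO and moved apart with time in CFZ. In WT cells Dcn fell 1.88-fold at 6 h and 5.74-fold at 24 h (log2 fold change −2.52 ± 0.07 SE, adjusted p = 3.47e-25), and in Nrf1-KO cells 1.43-fold and 2.44-fold. Its fall was smaller in the Nrf1-KO line, by 0.39 ± 0.08 on the log2 scale at 6 h and by 1.23 ± 0.09 at 24 h (interactions, adjusted p = 1.31e-04 and 8.08e-13). Dcn was 1.13-fold higher in Nrf1-KO cells in DMSO and 2.64-fold higher at 24 h.

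**Figure D2:**
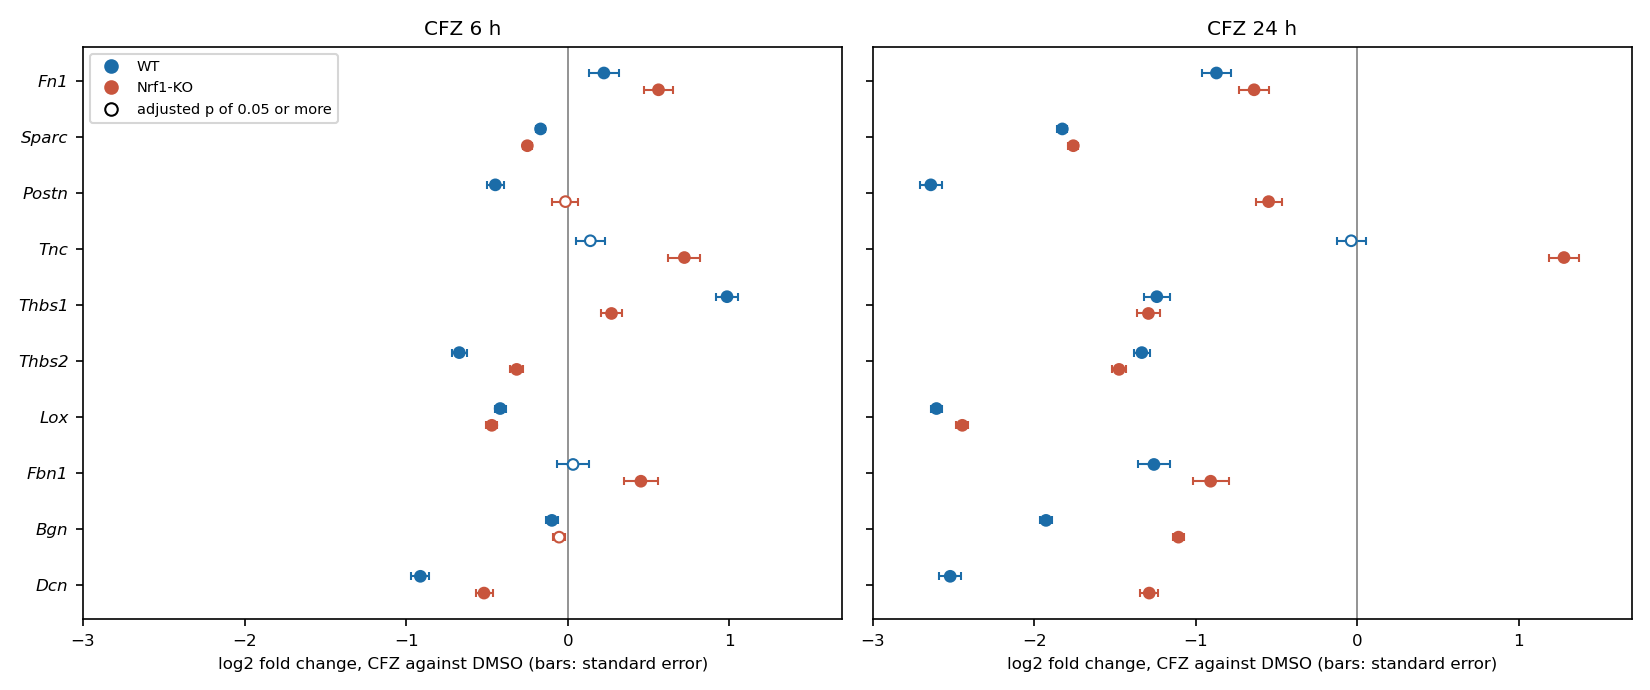
The log2 fold change of CFZ against DMSO (horizontal axis) is plotted for the 10 genes at 6 h (left) and 24 h (right) in WT and Nrf1-KO cells, with standard errors as bars and open circles where the adjusted p-value was 0.05 or more. At 24 h the points of Sparc, Lox, Thbs1 and Thbs2 lie close together in the 2 lines, while those of Postn (−2.64 and −0.55), Dcn (−2.52 and −1.29) and Bgn (−1.93 and −1.11) lie apart and Tnc (1.28) lies to the right of 0 in Nrf1-KO cells.

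Set against WT cells, the Nrf1-KO cells in DMSO were higher in 4 of the 10 genes (Thbs1, Thbs2, Bgn and Dcn) and lower in 4 (Postn, Tnc, Lox and Fbn1). Of all genes 25.7% were higher and 29.1% lower, and 1.77% were lower by at least 2-fold, as Postn and Fbn1 were, and 3.2% higher by at least 2-fold, as none of the 10 was. At 6 h 4 genes were higher and 4 lower, beside 30.5% and 30.8% of all genes, and the higher ones were Fn1, Thbs2, Bgn and Dcn. Thbs2 was at least 2-fold higher and Postn and Fbn1 at least 2-fold lower at 6 h, as were 4.31% and 3% of all genes. At 24 h 7 were higher, or 6 without Fn1, whose call was lost with DESeq2 and without either of 2 libraries, and 2, Lox and Fbn1, were lower, beside 35.6% and 36.4% of all genes. The genes at least 2-fold higher at 24 h were Bgn and Dcn, as were 6.71% of all genes, and Fbn1 was at least 2-fold lower, as were 5.53%, and the median over the 10 genes was 0.31 beside −0.003 over all genes. Lox and Fbn1 were the genes lower in Nrf1-KO cells under all 3 treatments, and Thbs2, Bgn and Dcn the ones higher under all 3.

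The response itself differed between the lines for 7 of the 10 genes at 6 h. The interaction was higher for 6 (Fn1, Postn, Tnc, Thbs2, Fbn1 and Dcn) and lower for Thbs1, against 19.8% and 18.4% of all genes. None reached 2-fold at 6 h, as 1.21% of all genes did upward and 1.57% downward. At 24 h it was higher for 6 (Postn, Tnc, Lox, Fbn1, Bgn and Dcn) and lower for none, against 29.7% and 30% of all genes. For Postn, Tnc and Dcn it was at least 2-fold higher, as for 4.07% of all genes. At an unadjusted p under 0.05 edgeR gave 1 lower gene, Thbs2, which passed the adjusted test when the replicate numbers entered the fit as blocks (adjusted p = 0.0309), and DESeq2 called 0 lower. Some of the calls depended on the fit. Of 20 alternative fits, 12 called the interaction of Fn1 at 6 h, 13 that of Fbn1 at 6 h and 10 that of Fbn1 at 24 h. The medians of the interaction over the 10 genes were 0.35 at 6 h and 0.29 at 24 h, beside 0.02 and 0.01 over all genes. The 6 h and 24 h interactions use the same DMSO libraries.

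Compared per kilobase of exon, the 10 genes ranged by steps from abundant to scarce. In WT DMSO Sparc was at 693.5 ± 12.5, Lox at 663 ± 12 and Fn1 at 588 ± 56.6 CPM per kilobase (SD, n = 3), followed by Bgn at 216 ± 5.07 and Fbn1 at 48.2 ± 4.78. Below them came Thbs2 at 18.4 ± 0.938, Thbs1 at 18.2 ± 1.57 and Tnc at 16.1 ± 1.34, neighbours whose libraries overlapped. Dcn at 11.5 ± 0.61 and Postn at 7.15 ± 0.149 were last. By exon length Fn1 was at the top in both lines at 6 h and 24 h, with 879 ± 81.1 CPM per kilobase in Nrf1-KO cells at 6 h. Tnc moved from the eighth place in WT DMSO and the ninth in Nrf1-KO DMSO to the fifth in Nrf1-KO cells at 24 h, at 20.4 ± 3.61 CPM per kilobase, and Fbn1 from the fifth in WT DMSO to the eighth there. With the length of the longest annotated transcript in place of all exons, 42 of the 60 group levels moved by more than their SD. In WT DMSO Sparc was then at 1142, Bgn at 495 and Postn at 11.9 CPM per kilobase, Sparc remained first, and Fn1 at 827 and Lox at 668 changed places. At 6 h in WT cells Sparc, at 1016, lay above Fn1, at 966, and Tnc again took the fifth place in Nrf1-KO cells at 24 h.

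**Figure D3:**
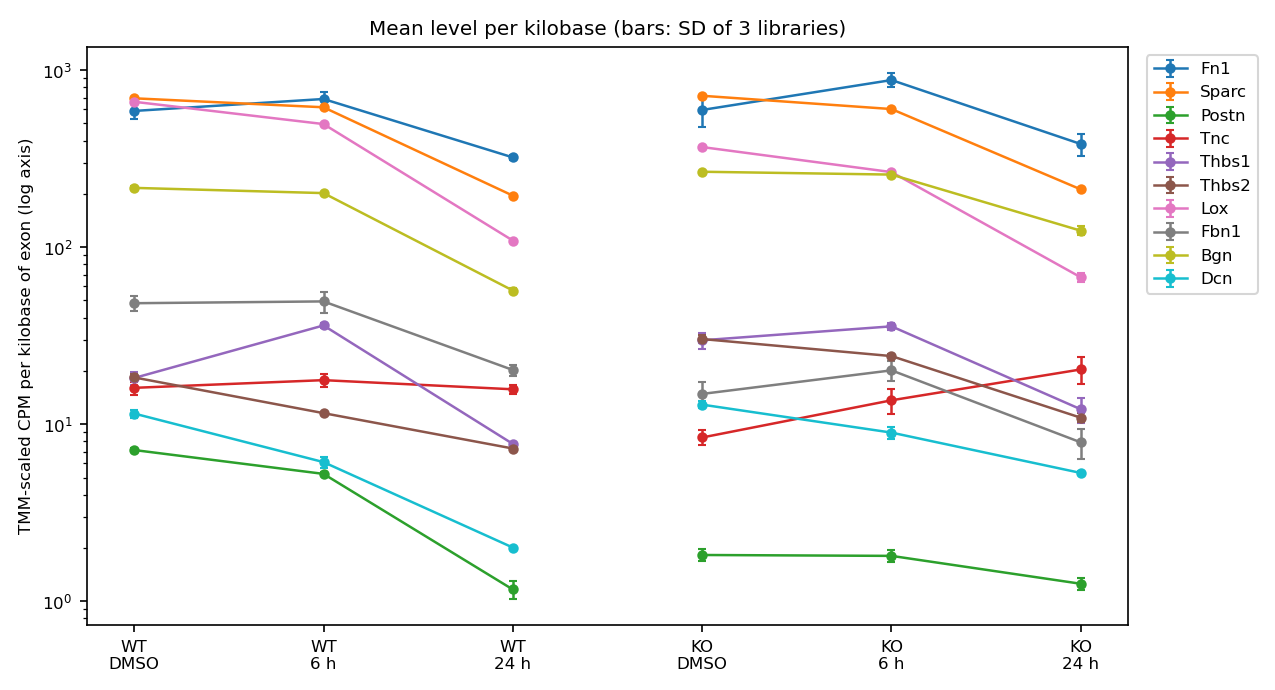
The mean TMM-scaled CPM per kilobase of exon (vertical log axis) of the 10 genes is drawn across the 3 treatments in WT cells (left) and Nrf1-KO cells (right), with the SD of 3 libraries as bars. The lines of most genes slope down to 24 h. That of Tnc in Nrf1-KO cells goes from 8.41 to 20.4 and passes those of Thbs1, Thbs2, Fbn1 and Dcn.

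Across the 18 libraries the other gene outside the gene lists whose level followed each of the 10 most closely was taken by Pearson's r of the log2 levels. These were Col16a1 for Sparc (r = 0.998), Grb10 for Lox (0.994), Stmn1 for Dcn (0.993), Cdkn2aipnl for Bgn (0.992), Sun1 for Thbs2 (0.986), Psd3 for Postn (0.975), Sqle for Thbs1 (0.965), Fhl1 for Fbn1 (0.965), Rif1 for Fn1 (0.958) and Jag1 for Tnc (0.953). Between the members r was highest, at 0.948, for Bgn and Dcn, followed by 0.928 for Fn1 and Thbs1 and 0.926 for Sparc and Lox, and it was −0.689 for Tnc and Thbs2. These values describe 18 points that share 6 group means.

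The other genes of the matrix moved as follows. Of 42 other matrix proteins, all non-collagen, 35 were tested. At 24 h in WT cells 29 were lower and 4 higher, beside 40.5% and 43.2% of all genes, with a median log2 fold change of −1.26. Of the 29, 22 were lower at least 2-fold, as were 14.5% of all genes. In Nrf1-KO cells 25 were lower and 6 higher (median −1.14), beside 41.1% and 44.4% of all genes, and the interaction was higher for 20 and lower for 4, beside 29.7% and 30%. The 4 higher in WT cells were Nid1, Efemp2, Lamb1 and Ecm1, and the 6 in Nrf1-KO cells were Nid1, Lamb1, Ecm1, Vcan, Lama4 and Lama5. Nid1, the basement membrane linker nidogen 1, was among the higher ones in both lines, and it went from 486 ± 28.9 CPM in WT DMSO to 4057 ± 73.3 at 24 h and from 667 ± 79.3 to 8703 ± 742 CPM in Nrf1-KO cells (log2 fold changes 3.06 and 3.71). Efemp2, also known as fibulin 4 and needed for elastic fibres, rose in WT cells from 139 ± 2.95 to 225 ± 5.08 CPM and fell in Nrf1-KO cells from 129 ± 3.29 to 37.5 ± 1.13 CPM, an interaction of −2.47 ± 0.06. Sparcl1, the relative of Sparc, was at 2.26 ± 0.374 CPM in WT DMSO and had no read in the 3 WT libraries at 24 h, where 3 reads would be 0.18 to 0.305 CPM. Smoc2, a matricellular calcium-binding protein, had an interaction of 3.21 ± 0.62 on low levels, 0.101 ± 0.124 CPM in WT and 0.749 ± 0.155 CPM in Nrf1-KO cells at 24 h.

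Of 7 tested genes for enzymes that cross-link or mature the matrix, 5 were lower and 1 was higher at 24 h in each line. Beside them 40.5% of all genes were lower and 43.2% higher in WT cells, and 41.1% and 44.4% in Nrf1-KO cells. The medians over the 7 genes were −1.13 in WT and −1.88 in Nrf1-KO cells. Pcolce, an enhancer of procollagen processing, went from 394 ± 17.2 to 13.7 ± 1.25 CPM in WT cells (log2 fold change −4.83), and Loxl3, a relative of Lox, fell more in Nrf1-KO cells (interaction −2.08 ± 0.08). Bmp1, the protease that processes procollagen and pro-lysyl oxidase, rose in WT cells by 0.23 ± 0.04 on the log2 scale, and its interaction was 0.37 ± 0.06. Of the 15 genes for glycosaminoglycan chains, which decorin and biglycan carry, 9 were lower and 5 higher in WT cells at 24 h (median −0.40), and 7 and 6 in Nrf1-KO cells (median −0.03), beside 40.5% and 43.2% of all genes in WT and 41.1% and 44.4% in Nrf1-KO cells. B4galt7, an enzyme of the chain linker, rose in WT cells from 12.1 ± 1.29 to 43.8 ± 1.39 CPM, while Csgalnact1, which starts chondroitin chains, fell from 123 ± 3.41 to 22.4 ± 0.72 CPM. B3galt6, another linker enzyme, had an interaction of −0.79 ± 0.25.

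Receptors and the TGF-beta pathway, which is known to induce many matrix genes, held genes that rose beside genes that fell. The shares of all genes beside the counts that follow are 40.5% lower and 43.2% higher in WT cells, 41.1% and 44.4% in Nrf1-KO cells, and 29.7% higher and 30% lower in the interaction. Of 20 matrix receptors 11 were lower and 5 higher in WT cells at 24 h (median −0.42), 9 and 6 in Nrf1-KO cells (median −0.27), and the interaction was higher for 14 and lower for 4. Itga11, a collagen-binding integrin, fell from 42.6 ± 2.49 to 5.05 ± 0.0921 CPM in WT cells, and Cd44, the hyaluronan receptor, rose from 116 ± 5.93 to 334 ± 6.46 CPM. Itgb8, an integrin that activates latent TGF-beta, had an interaction of 2.04 ± 0.26, and Itga3, a laminin receptor, of −0.33 ± 0.11. Of 22 genes of the TGF-beta pathway 15 were lower and 6 higher in WT cells at 24 h (median −0.40), 14 and 8 in Nrf1-KO cells (median −0.27), and the interaction was higher for 12 and lower for 3. Smad6, an inhibitor of the pathway, fell from 10.9 ± 0.479 to 0.913 ± 0.107 CPM in WT cells with an interaction of 1.88 ± 0.25, Tgif1, a repressor of Smad targets, rose from 51.0 ± 0.492 to 96.7 ± 1.67 CPM, and Ltbp3, which binds latent TGF-beta, had an interaction of −1.01 ± 0.06.

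**Figure D4:**
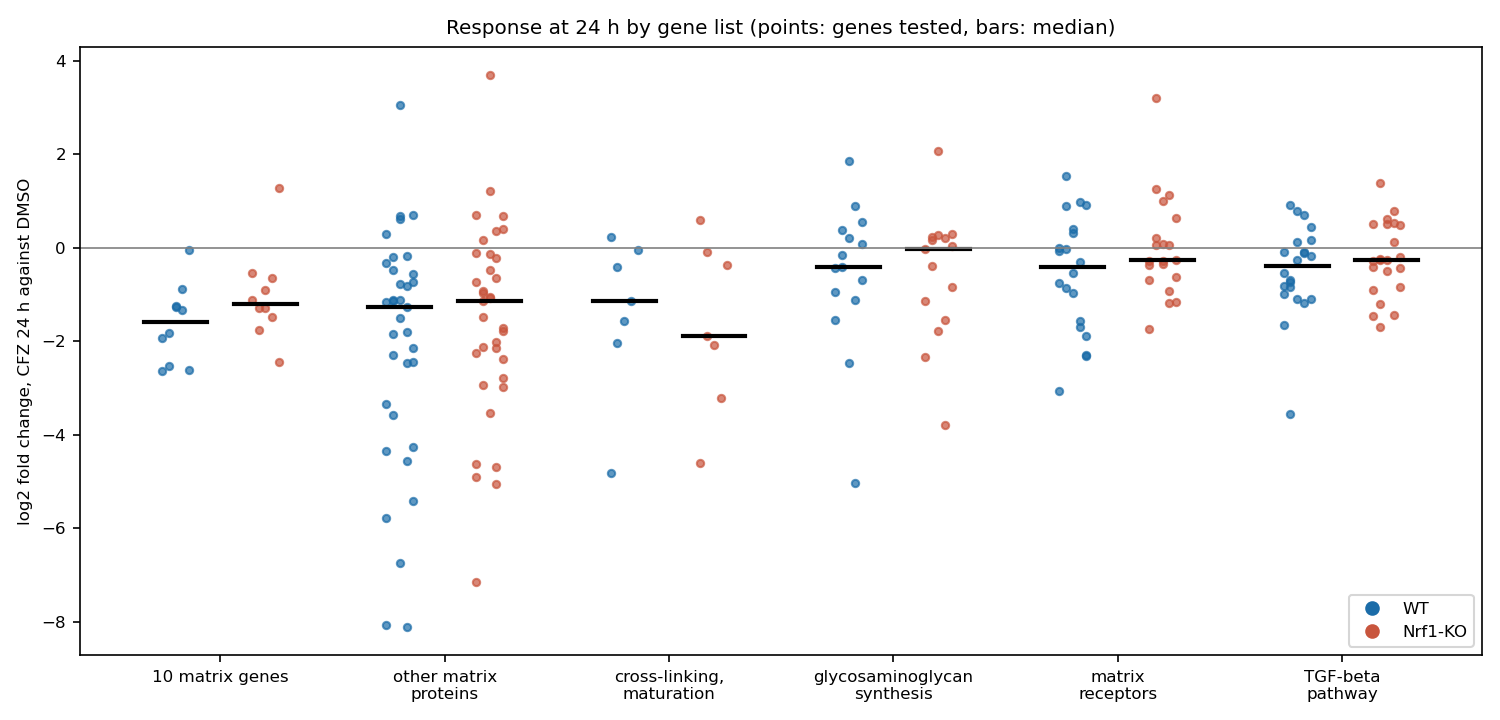
Each point is the log2 fold change of CFZ 24 h against DMSO (vertical axis) of 1 tested gene, by gene list and line, and each bar is the median of the list. The medians of the 10 genes (−1.58 in WT and −1.20 in Nrf1-KO cells) and of the other matrix proteins (−1.26 and −1.14) lie below those of the receptors (−0.42 and −0.27) and of the TGF-beta pathway (−0.40 and −0.27).

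Of the 8 fibroblast markers tested, all were lower in WT cells at 24 h, and in Nrf1-KO cells 6 were lower, 1 higher and 1 did not pass the test, beside 40.5% of all genes lower in WT cells and 41.1% lower and 44.4% higher in Nrf1-KO cells. Their sum went from 26710 to 28290 CPM in WT DMSO to 4581 to 4610 CPM at 24 h, and from 21270 to 25380 to 7203 to 7991 CPM in Nrf1-KO cells. Col3a1, a fibrillar collagen, fell by 3.81 ± 0.05 on the log2 scale in WT cells with an interaction of 2.001 ± 0.06, and S100a4 had an interaction of −1.25 ± 0.08. Pdgfra, a receptor for platelet-derived growth factor, fell from 209 ± 9.59 to 130.4 ± 3.88 CPM in WT cells and was the marker that rose in Nrf1-KO cells, from 264 ± 6.99 to 284 ± 21.6 CPM (log2 fold change 0.10, adjusted p = 0.0287). Vim, the intermediate filament protein vimentin and the marker that did not pass the test there, went from 3398 ± 162 to 3451 ± 48.3 CPM in Nrf1-KO cells and fell from 3738 ± 17.8 to 1557 ± 21.5 CPM in WT cells, and it was chosen for the text after its values were seen. Of 3 contractile markers tested, 2 were lower and 0 higher in WT cells at 24 h, and 2 lower and 1 higher in Nrf1-KO cells. Beside them 40.5% of all genes were lower and 43.2% higher in WT cells, and 41.1% and 44.4% in Nrf1-KO cells. The contractile markers summed to 592 to 657 CPM in WT DMSO, 925 to 938 CPM at 6 h and 241 to 247 CPM at 24 h. In Nrf1-KO cells the sums were 299.6 to 325, 394 to 435 and 50.1 to 56.4 CPM. At 24 h Acta2 had an interaction of −1.46 ± 0.07 and Tagln of −1.24 ± 0.07. The part of these shifts in the results for the 10 genes was not tested. Of the epithelial markers 4 of 5 were at 0 in WT DMSO, and Cdh1 fell by 3.54 ± 0.23 on the log2 scale from 6.12 ± 0.231 CPM, with an interaction of −1.33 ± 0.46. The endothelial markers summed to 0.531 to 0.913 CPM in WT DMSO and 3.36 to 4.15 CPM at 24 h, and to 0.637 to 0.919 and 3.87 to 4.33 CPM in Nrf1-KO cells, and Cdh5, the vascular cadherin, rose from 0.226 ± 0.152 to 2.96 ± 0.554 CPM in WT and from 0.181 ± 0.0717 to 3.402 ± 0.228 CPM in Nrf1-KO cells. The blood cell markers summed to 0.456 to 0.928 CPM in WT DMSO and 2.85 to 3.78 CPM at 24 h, and to 1.64 to 1.97 and 5.70 to 5.96 CPM in Nrf1-KO cells, and Cd68, a macrophage protein of lysosomes, rose from 0.698 ± 0.236 to 3.21 ± 0.525 and from 0.776 ± 0.267 to 4.48 ± 0.136 CPM. Ptprc, the defining blood cell marker, was at 0 in all 9 WT libraries and at 0.719 to 1.33 CPM in the Nrf1-KO libraries. These 3 genes were chosen for the text after their values were seen, and the part of these low levels in the results for the 10 genes was not tested.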

How the data were processed

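The data were 18 RNA-sequencing libraries from NIH-3T3 cells, with 3 biological replicates per group, and the 6 groups were read from the sample labels. The authors made stranded mRNA libraries, read as pairs of 125 bases, and ran an Illumina application that combines STAR and DESeq2. They deposited raw counts, whole reads per gene symbol for 23420 genes with no normalization. Versions, genome build, annotation and use of strand are not given in the sources used here, so reads where genes overlap on opposite strands (20.1% of the exon bases of Fbn1, at most 3.42% of the other genes) could be split in ways that are not known.

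The counts were analysed with edgeR 4.0.16 (R 4.3.3). Genes were kept by filterByExpr, with a minimum count of 10 and a total of at least 15, scaled by TMM and fitted in 1 quasi-likelihood model of the 6 groups, with Benjamini-Hochberg adjustment over 11762 genes and a threshold of 0.05. The 11 comparisons were the 3 contrasts of treatments within each line, Nrf1-KO against WT under each treatment, and the interaction at each time. Standard errors (SE) were derived from the F statistic, as the absolute log2 fold change over the root of F. Positions and lengths came from GENCODE M21 (GRCm38) and promoter windows from RefSeq, by symbol. The TATA motif was added after the other motifs had been searched. The tests were also run on counts simulated from the mean levels and fitted spread of these data, with independent libraries. Such a run cannot show where the model fails to describe the real libraries.

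The 10 genes, the gene lists and the alternatives were chosen with earlier results of these data known. The text names all 10 genes, Nfe2l1, and the gene outside the lists most correlated with each of the 10. In each other list it names the called genes (mean count of at least 50) with the highest and the lowest log2 fold change, whatever its sign. These were taken in WT cells at 24 h and in the interaction at 24 h. Alternatives tried were upper-quartile scaling, DESeq2 1.42.0, library size alone, no expression filter, a mean count of at least 10, a fit of the compared groups, replicate numbers as blocks, omission of each library, a minimum fold of 2, the longest transcript as length and, chosen after seeing the data, the replicates numbered 2 and 3 alone.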

Additional observations from a re-analysis of the deposited data

Results flagged for a closer look

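The response to CFZ differed between Nrf1-KO and WT cells, by the interaction in the edgeR model at an adjusted p-value under 0.05, for 7 of the 10 genes at 6 h and 6 at 24 h. Of all genes tested, 19.8% were higher and 18.4% lower in the interaction at 6 h, and 29.7% and 30% at 24 h. A positive value means a log2 fold change that was higher in Nrf1-KO cells. At 6 h the interactions were 0.338 for Fn1, 0.434 for Postn, 0.582 for Tnc, −0.715 for Thbs1, 0.355 for Thbs2, 0.421 for Fbn1 and 0.394 for Dcn. At 24 h they were 2.091 for Postn, 1.317 for Tnc, 0.16 for Lox, 0.351 for Fbn1, 0.82 for Bgn and 1.232 for Dcn. Of 20 alternative fits, 12 called the interaction of Fn1 at 6 h, 13 that of Fbn1 at 6 h and 10 that of Fbn1 at 24 h. For Lox at 24 h 18 of 20 did. DESeq2 was among the fits that did not call those of Fn1 and Fbn1.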

How the results depend on the processing

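Of 1660 refits of the 110 single results of the 10 genes, 92 changed the direction or the side of the threshold, in 24 results, and no gene called in the reported or the alternative fit changed its direction. The 9 falls at 24 h in each line and the rise of Tnc in Nrf1-KO cells were called in every alternative that sets no minimum fold. The cause of the changes below was not tested, apart from the minimum fold, which by construction calls fewer genes.

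With a minimum fold of 2, 0 genes were called higher and 0 lower at 6 h in WT cells, in Nrf1-KO cells and in the interaction, 0 were higher from 6 h to 24 h in Nrf1-KO cells, and in Nrf1-KO against WT 0 were higher and 2 lower in DMSO, 1 higher and 2 lower at 6 h (4.31% and 3% of all genes), and 2 higher and 1 lower at 24 h (6.71% and 5.53%), with 3 higher in the interaction at 24 h (4.07%). In WT cells at 6 h 1 gene in place of 2 was higher with upper-quartile scaling, with library size alone and with DESeq2, and 1 to 3 when a library was left out. In the interaction 1 gene, Thbs2, in place of 0 was lower at 24 h with library size alone, with the replicate block and with replicates 2 and 3 alone, and 0 to 1 with a library left out (1 without WT DMSO replicate 1, Nrf1-KO DMSO replicate 3 or Nrf1-KO 24 h replicate 1). At 6 h 1 to 2 were lower with a library left out, the second being Sparc without WT DMSO replicate 1 (−0.122).

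The signs that turned belonged to small log2 fold changes that passed no test. Fbn1 in WT cells at 6 h (0.033) was −0.077 under upper-quartile scaling, −0.1 for library size alone, −0.009 with replicates 2 and 3, and −0.074 to 0.114 with a library left out. In Nrf1-KO against WT, Fn1 in DMSO (0.018) was −0.075 with replicates 2 and 3 and −0.155 to 0.115 with a library left out. At 6 h Sparc (−0.034) was 0.015 under upper-quartile scaling and 0.034 for library size alone, and Thbs1 (−0.013) was 0.035, 0.054 and −0.056 to 0.013 with a library left out. With a library left out Tnc in WT cells at 24 h ran from −0.079 to 0.005, Postn in Nrf1-KO cells at 6 h from −0.071 to 0.043, and the interaction of Bgn at 6 h from −0.002 to 0.065 and of Thbs1 at 24 h from −0.166 to 0.053. The interaction of Sparc at 24 h was −0.009 with library size alone.

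Over all genes, deviations of libraries with the same replicate number correlated at −0.0494 to 0.0972 over 45 pairs, none over 0.1. The reported fit did not take the numbers as pairs. A correlation over all genes cannot show that no effect is shared in some genes. For Fn1, Tnc and Fbn1 the library numbered 1 was the highest in each group. The replicate block also called Tnc in WT cells at 6 h (0.145; called in 5 of 14 alternatives) and from 6 h to 24 h (−0.165; 7 of 14), Fn1 in the interaction at 24 h (0.231; 5 of 20), and Thbs2 as above. With library size alone, 36.4% of the called genes were higher in Nrf1-KO cells at 6 h in place of 49.7%, and 41.6% in place of 52% at 24 h, and for Nrf1-KO against WT 57.7% in place of 46.9% in DMSO and 60.8% in place of 49.8% at 6 h. With upper-quartile scaling 37.9% in place of 49.6% were higher in WT cells at 6 h. CPM give a share of the reads, so a change in the total RNA per cell is not seen.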

Other observations

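Within the groups, the library numbered 1 held the highest level of Fn1, Tnc and Fbn1 in 6 of 6 groups, by a mean of 0.17, 0.17 and 0.207 on the log2 scale above the mean of its group. These are the 3 genes with the longest annotated transcripts among the 10, at 8315 bases for Fn1, 7106 for Tnc and 11971 for Fbn1. For Sparc, with the shortest at 2300 bases, the library numbered 1 was highest in 1 of 6 groups and deviated by −0.00947. Over 9684 genes with a length, the mean deviation of the libraries numbered 1 had a Spearman correlation of 0.386 with transcript length, across genes, which are not independent replicates. The median deviation was −0.0168 for the 1741 genes of up to 2000 bases and 0.0328 for the 598 genes over 8000 bases. The labels give no batch for these libraries, and the part of this difference in the results was not tested beyond the fits without them given above.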
